A study of Homo sapiens with 6 samples.

Results

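Integrin subunit genes were followed in HCT116 cells, a human colorectal carcinoma line, given auxin for 16 h or only DMSO, the solvent control. The members were a fixed list of 10 symbols out of 58780 genes in the tables: the 6 alpha subunit genes ITGA2, ITGA3, ITGA5, ITGA6, ITGAV and ITGAE and the 4 beta subunit genes ITGB1, ITGB4, ITGB5 and ITGB6. The rule reads symbols only, not measured values. There were 3 libraries per group, labelled as biological replicates. Auxin is a plant hormone that makes engineered cells destroy whichever protein has been fused to a degron. The labels enter the treatment in the field for genotype and name neither a fused protein, an engineered allele, a clone nor a DMSO time, so the agent and its 16 h are all that distinguishes the groups here. The loss of a targeted protein was not analysed here. Messenger RNA was not selected by its tail: ribosomal RNA was depleted from total RNA, so incompletely spliced RNA can also be sequenced.

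Integrins are adhesion receptors made of 1 alpha and 1 beta subunit, which hold epithelial cells to the proteins of the basement membrane and carry signals both ways across the plasma membrane. The beta1 subunit pairs with many alpha subunits, among them alpha2, a collagen and laminin receptor chain, alpha3 and alpha6, laminin receptor chains, and alpha5, the fibronectin receptor chain. The beta4 subunit pairs with alpha6 alone and anchors hemidesmosomes, the beta5 and beta6 subunits pair with alphaV, and alphaE pairs with beta7 on lymphocytes that bind E-cadherin. The alpha6 and alpha3 genes each make an A and a B form, whose short tails inside the cell are encoded by alternative exons near the end of the gene.

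Total expected counts, the estimated reads assigned to all genes, ranged from 234037969 to 625895062 per library, and replicate 1 was the deepest in both groups. Levels are given as CPM, counts scaled to a common library size with TMM factors, and comparisons between genes as TPM, which is also scaled by length. Of 8 colorectal epithelial marker genes, 6 had at least 1 CPM in every library, with a summed level of 2811 to 3163 CPM in DMSO and 3754 to 4031 CPM in auxin libraries, while CDX1 was at 0 in all 6 libraries. Leukocyte, fibroblast and endothelial markers summed to at most 0.206, 5.33 and 0.557 CPM. These epithelial markers moved with the treatment, and their part in the results was not tested. A lower level in bulk RNA cannot tell fewer cells with the RNA from less RNA per cell.

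The 4 exon ends shown next distinguish the A and B forms and are printed because the share of these forms differed between the groups in ITGA6 and ITGA3. Sequences and positions are those of GENCODE release 29 on GRCh38, both genes lie on the plus strand, and each sequence runs from the first base of the exon to the stop codon, which is in capitals. In ITGA6, transcript ITGA6-201 contains exon 25 (chr2:172501772-172501879 up to its stop codon), which ends the reading frame of the A form after 105 coding bases, and ITGA6-202 skips it and reads into the last exon (chr2:172504091-172504252), which gives the B form 159 coding bases. In ITGA3, transcript ITGA3-202 contains exon 25 (chr17:50088225-50088335), with 108 coding bases, and ITGA3-201 skips it and reads 153 coding bases of the last exon (chr17:50089110-50089265).
ITGA6 exon 25, A form: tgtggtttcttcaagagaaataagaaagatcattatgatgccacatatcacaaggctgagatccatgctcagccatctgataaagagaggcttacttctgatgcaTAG
ITGA6 last exon, B form: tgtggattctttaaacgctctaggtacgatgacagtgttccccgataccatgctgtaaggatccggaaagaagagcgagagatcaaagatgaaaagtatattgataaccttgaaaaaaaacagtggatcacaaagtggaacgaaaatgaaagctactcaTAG
ITGA3 exon 25, A form: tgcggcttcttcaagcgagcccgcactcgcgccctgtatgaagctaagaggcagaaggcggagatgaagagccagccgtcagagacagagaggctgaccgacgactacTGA
ITGA3 last exon, B form: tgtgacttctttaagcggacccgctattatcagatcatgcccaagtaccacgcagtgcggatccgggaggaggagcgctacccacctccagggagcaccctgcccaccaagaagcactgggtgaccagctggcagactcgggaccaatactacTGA
ITGA6 and ITGA3 shared 73 of 119 aligned positions between their A ends (61.3%) and 97 of 172 between their B ends (56.4%), whereas the A and B ends shared 47.9% within ITGA6 and 52.6% within ITGA3.

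At the level of whole genes, 5 of the 10 members rose after auxin (ITGA2, ITGA6, ITGB1, ITGB5 and ITGB6), 3 fell (ITGA3, ITGA5 and ITGB4), and 2 did not pass the test (ITGAV and ITGAE). The test was edgeR's quasi-likelihood test with Benjamini-Hochberg adjustment over 19725 genes, called at an adjusted p under 0.05. All 10 members passed the filter on low counts. The contrast was broad: 52.3% of all tested genes were called, 25.4% higher and 26.9% lower, so the members' 8 calls are to be read against a change in a majority of genes. The CPM ranges of the groups did not overlap in 8 of the 10 members, against 60.3% of all tested genes. The median log2 fold change was 0.29 over the members and 0.02 over all tested genes.

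**Figure D1:**
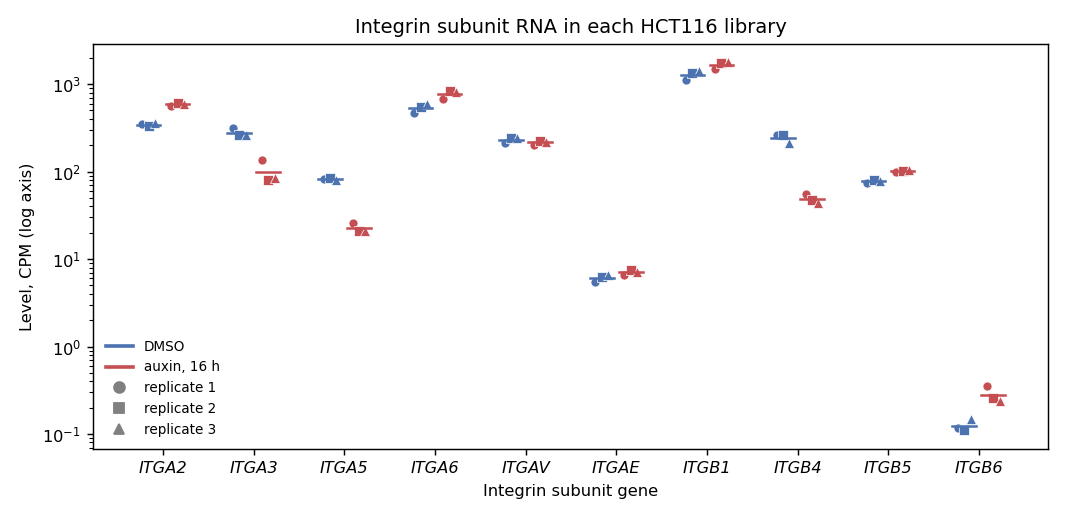
Level of each integrin subunit gene in CPM (log axis) in the 3 DMSO and 3 auxin libraries, with a line at each group's mean. ITGA3, ITGA5 and ITGB4 sit lower in every auxin library, ITGA2, ITGA6, ITGB1, ITGB5 and ITGB6 sit higher, and the groups overlap for ITGAV and ITGAE.

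Among the laminin and collagen receptor alpha chains, ITGA2 and ITGA6 rose. ITGA2 (chr5:52989326-53094779), which encodes the alpha2 chain, had 347.7, 327.8 and 356.3 CPM in DMSO replicates 1, 2 and 3 and 569.4, 601.5 and 591.0 CPM in auxin replicates 1, 2 and 3. All auxin libraries were above all DMSO libraries, with little spread inside either group. The auxin level was 1.71 times the DMSO level (log2 fold change 0.77, SE 0.06, adjusted p = 6.49e-05, edgeR quasi-likelihood test). ITGA6 (chr2:172427354-172506282), which encodes the laminin receptor chain alpha6, had 468.3, 554.0 and 593.2 CPM in DMSO and 666.9, 841.2 and 815.4 CPM in auxin libraries. Replicate 1 was the lowest of its group in both groups, and the groups did not overlap. The increase was 1.44-fold (log2 fold change 0.52, SE 0.12, adjusted p = 0.00918, edgeR quasi-likelihood test). When log2(TPM + 1) was tested with limma in place of counts, neither passed (adjusted p = 0.0570 for ITGA2 and 0.0652 for ITGA6).

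ITGA3 and ITGA5 fell in all 3 auxin libraries. ITGA3 (chr17:50055968-50090481), the laminin receptor chain alpha3, had 316.2, 258.7 and 260.9 CPM in DMSO and 134.0, 80.3 and 84.5 CPM in auxin libraries. Replicate 1 was the highest of its group in both groups, and the gap between the groups was wider than either spread. The DMSO level was 2.80 times the auxin level (log2 fold change -1.48, SE 0.20, adjusted p = 0.000797, edgeR quasi-likelihood test). The estimate was -1.66 with replicates 2 and 3 only and -0.83 (adjusted p = 0.00121) when each library's counts were also corrected for the GC content of transcripts, and the limma fit on log2(TPM + 1) did not pass (adjusted p = 0.0552). ITGA5 (chr12:54395261-54419460), the fibronectin receptor chain alpha5, had 82.8, 83.6 and 80.9 CPM in DMSO and 25.6, 21.2 and 21.2 CPM in auxin libraries. The DMSO libraries were nearly level with each other, and each was more than 3 times any auxin library. The DMSO level was 3.63 times the auxin level (log2 fold change -1.86, SE 0.09, adjusted p = 6.65e-06, edgeR quasi-likelihood test).

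ITGAV and ITGAE were not called. ITGAV (chr2:186590065-186680901), whose chain alphaV joins several beta chains, had 212.8, 239.2 and 241.2 CPM in DMSO and 202.7, 226.6 and 218.2 CPM in auxin libraries. The ranges overlapped, although each auxin library was slightly below the DMSO library of its number. The log2 fold change was -0.10 (SE 0.08, adjusted p = 0.312, edgeR quasi-likelihood test), with the replicate number as a block it was -0.10 (adjusted p = 0.0201), and with upper-quartile scaling it turned to 0.02 (adjusted p = 0.773). ITGAE (chr17:3714628-3801243), the E-cadherin receptor chain alphaE, had 5.52, 6.31 and 6.63 CPM in DMSO and 6.55, 7.44 and 7.12 CPM in auxin libraries. Here the ranges overlapped too, with each auxin library above the DMSO library of its number. The log2 fold change was 0.19 (SE 0.11, adjusted p = 0.164, edgeR quasi-likelihood test), and it passed with the block (0.20, adjusted p = 0.0194) and with upper-quartile scaling (0.32, adjusted p = 0.0286). It was smaller with GC-corrected offsets (0.05, adjusted p = 0.647) and in the limma fit on log2(TPM + 1) (0.06, adjusted p = 0.823).

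The alphaE values describe little full-length mRNA. Transcript ITGAE-207, a 4-exon noncoding model of 672 bases from the 3' part of the gene, held 86.1% ± 2.8 (SD, n = 3) of the gene's counts in DMSO and 89.7% ± 1.9 (SD, n = 3) in auxin libraries. Its levels were 5.30 CPM in DMSO and 6.31 CPM in auxin libraries on average, and the groups overlapped. Its share was not called (adjusted p = 0.265, limma), but was called higher when replicates were blocked by number (adjusted p = 0.0467, limma). ITGAE also shares 427 exonic bases with HASPIN, a kinase gene on the opposite strand, which averaged 35.7 CPM in DMSO and 23.8 CPM in auxin libraries. Whether counting used the strand is not given in the sources used here, so reads of these bases cannot be assigned with certainty. ITGB7, the partner chain of alphaE, was at most 0.0674 CPM in any library.

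Of the beta subunit genes, 1 fell and 3 rose. ITGB4 (chr17:75721328-75757818), the hemidesmosome chain beta4, showed the largest fall of the 10 members: 261.0, 258.8 and 213.5 CPM in DMSO against 55.2, 47.2 and 44.2 CPM in auxin libraries. The lowest DMSO library was several times the highest auxin library. The DMSO level was 5.00 times the auxin level (log2 fold change -2.32, SE 0.12, adjusted p = 9.21e-06, edgeR quasi-likelihood test). With the GC correction the log2 fold change was -1.54 and remained past the threshold (adjusted p = 7.66e-06). Its only partner, ITGA6, moved the other way.

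ITGB1 (chr10:32900319-33005792), the common beta chain, had 1111, 1325 and 1423 CPM in DMSO and 1494, 1758 and 1771 CPM in auxin libraries. The lowest auxin library was only just above the highest DMSO library, and replicate 1 was lowest in both groups. The increase was 1.30-fold (log2 fold change 0.38, SE 0.11, adjusted p = 0.0270, edgeR quasi-likelihood test). Without the pairing of replicates, this call depended on single libraries: it was lost without DMSO replicate 1 (adjusted p = 0.0740), without DMSO replicate 2 (0.0751), without auxin replicate 2 (0.0885) and without auxin replicate 3 (0.0925), and also in the limma fit on log2(TPM + 1) (0.232). It was kept with the replicate number as a block (0.38, adjusted p = 1.25e-05) and with replicates 2 and 3 only (0.36, adjusted p = 0.000209, both edgeR quasi-likelihood test).

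ITGB5 (chr3:124761948-124901418), an alphaV partner, had 74.2, 80.0 and 78.7 CPM in DMSO and 97.9, 102.8 and 104.0 CPM in auxin libraries. The groups did not overlap, and the spread inside each was small. The increase was 1.31-fold (log2 fold change 0.39, SE 0.06, adjusted p = 0.000997, edgeR quasi-likelihood test), and it was not called in the limma fit on log2(TPM + 1) (adjusted p = 0.438). ITGB6 (chr2:160099666-160200313), the other alphaV partner listed, was near the limit of detection, with 0.118, 0.110 and 0.147 CPM in DMSO and 0.353, 0.255 and 0.239 CPM in auxin libraries. These levels rest on 31 to 228 counts per library. The groups did not overlap, and the increase was 2.28-fold (log2 fold change 1.19, SE 0.24, adjusted p = 0.00495, edgeR quasi-likelihood test). ITGB6 shares 966 exonic bases with AC092153.1, a gene on the same strand, which averaged 0.0116 CPM in DMSO and 0.0523 CPM in auxin libraries. Reads of these bases cannot be assigned with certainty.

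**Figure D2:**
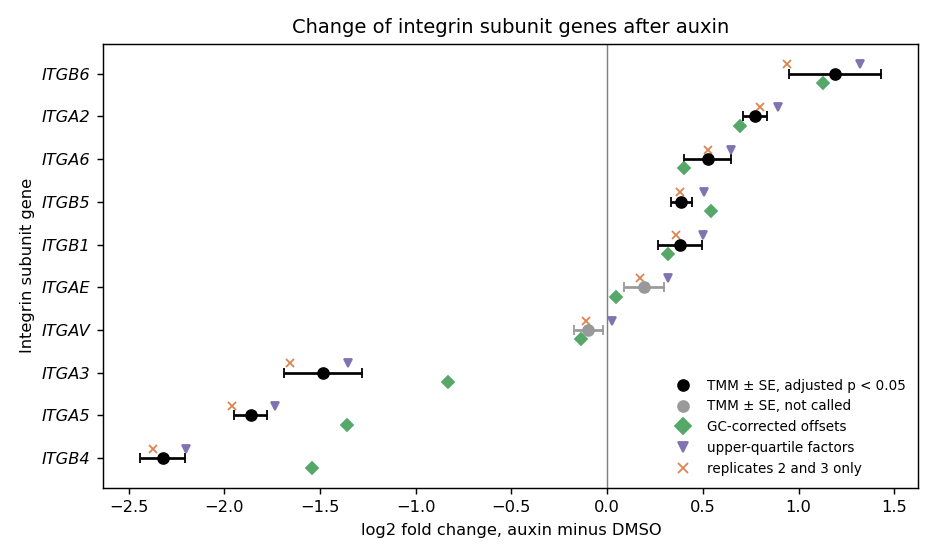
log2 fold change of each member, auxin minus DMSO, with its SE (circles; grey where not called), and the same value with GC-corrected offsets (diamonds), upper-quartile factors (triangles) or replicates 2 and 3 only (crosses). The 3 lower genes stay at -0.83 or lower in each of these settings, and only ITGAV crosses 0, at 0.02 with upper-quartile factors.

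Ranked by TPM in DMSO libraries, ITGB1 led with 454 ± 33 (SD, n = 3), followed by ITGA6 (104 ± 12), ITGA3 (98.3 ± 36), ITGB4 (90.2 ± 22), ITGA2 (45.1 ± 11), ITGAV (36.2 ± 5.4), ITGB5 (21.5 ± 5.0), ITGA5 (20.2 ± 5.1), ITGAE (12.0 ± 1.3) and ITGB6 (0.030 in each library). Neighbours in this order overlapped for ITGA6 and ITGA3, ITGA3 and ITGB4, ITGA2 and ITGAV, and ITGB5 and ITGA5. In auxin libraries ITGB1 (538 ± 45) and ITGA6 (134 ± 3.0) kept the top places, ITGA2 was next with 67.9 ± 7.4, and ITGB4 ranked below ITGB5 with 15.8 ± 4.0 TPM (SD, n = 3 each). ITGA3 at 41.8 ± 23 TPM overlapped both ITGA2 and ITGAV (30.7 ± 1.4), and ITGA5 at 6.07 ± 2.3 TPM was now below ITGAE at 12.5 ± 0.63 (SD, n = 3 each). The ITGAE value comes mostly from the short 3' model.

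The make-up by TPM of the 6 listed alpha and the 4 listed beta subunit genes differed between the groups as follows. Subunit genes outside the list, ITGB8 among them, are not part of these sums. Of the summed alpha subunit TPM, ITGA6 took 33.4% ± 3.5 in DMSO and 46.1% ± 4.6 in auxin libraries, and ITGA2 took 14.2% ± 0.5 and 23.2% ± 0.4 (SD, n = 3 each). ITGA3 went from 30.6% ± 4.2 to 13.8% ± 5.6 and ITGA5 from 6.36% ± 0.28 to 2.03% ± 0.50 (SD, n = 3 each). ITGAV took 11.6% and 10.5% and ITGAE 3.84% and 4.28% (two-sided exact permutation p = 0.3 for each). Of the summed beta subunit TPM, ITGB1 took 80.3% ± 3.9 in DMSO and 92.9% ± 1.6 in auxin libraries, and ITGB4 15.9% ± 3.3 and 2.76% ± 0.84 (SD, n = 3 each). ITGB5 took 3.77% and 4.36%. Two-sided exact permutation tests gave p = 0.1, the smallest that 3 against 3 libraries allow, for ITGA2, ITGA3, ITGA5, ITGA6, ITGB1, ITGB4 and ITGB6, so no share could pass 0.05.

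**Figure D3:**
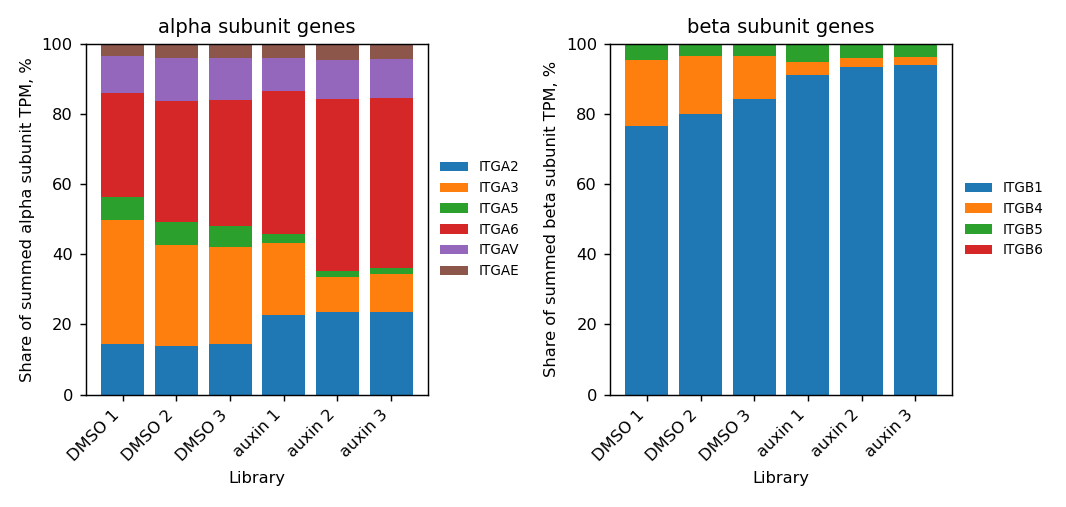
Share of the summed TPM of the 6 alpha subunit genes (left) and of the 4 beta subunit genes (right) in each library, in percent. The ITGA3 and ITGB4 segments shrink in the auxin libraries, where ITGB1 reaches 92.9% of the beta TPM on average, and ITGB6 is too small to see.

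The members that fell and rose differed in build, which the choice of genes did not use. ITGA3, ITGA5 and ITGB4, which fell, span 34.5, 24.2 and 36.5 kb, and the transcript with the most counts in each has a GC content of 60.9%, 58.7% and 62.9%. ITGA2, ITGA6, ITGB1 and ITGB5, which rose, span 105, 78.9, 105 and 139 kb, with 40.2%, 42.9%, 39.5% and 54.3% GC. ITGB6, also higher, spans 101 kb with 40.1% GC, and the uncalled ITGAV spans 90.8 kb with 38.3% GC. Values over all genes ran the same way: over 14145 protein-coding genes, the log2 fold change had a Spearman correlation of -0.36 with GC content and 0.20 with gene span, given as a description across genes that share the same 6 libraries. The median GC content was 46.1% in genes called higher and 56.1% in genes called lower, and the median span 42.5 and 23.1 kb. With GC-corrected offsets all 8 called members kept their direction and call. The log2 fold change was -1.36 for ITGA5, 0.40 for ITGA6, 0.69 for ITGA2, 0.32 for ITGB1, 0.54 for ITGB5 and 1.13 for ITGB6, beside the values given with ITGA3, ITGB4 and ITGAE, and ITGAV was called lower (-0.14, adjusted p = 0.0283, edgeR quasi-likelihood test). The part of gene span was not tested. ITGA3 and ITGB4 lie on the same arm of chromosome 17, and ITGA6, ITGAV and ITGB6 on chromosome 2.

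Below the level of whole genes, the mix of transcripts was tested with limma on the log2 odds of each transcript's share of its gene's counts. Of 31 member transcripts tested in 8 genes, 15 changed their share, 10 up and 5 down, in ITGA3, ITGA5, ITGA6, ITGB4 and ITGAE. Over all 50585 transcripts tested, 14% were called, 8.33% with a higher and 5.65% with a lower share. Of the 17 member transcripts annotated as protein-coding, 3 had a higher and 4 a lower share, against 6.03% and 7.42% of all coding transcripts. Retained-intron transcripts are models annotated as holding all or part of an intron and not as coding. They were higher in 6 of 9 and lower in 0 of 9 (0 also by edgeR's diffSpliceDGE, and 0 at an unadjusted p under 0.05 in limma), against 21.3% and 1.72% of all such transcripts. All 6 were transcripts of ITGA3 or ITGA5. The diffSpliceDGE test sets a transcript's change against that of its whole gene. Why it called fewer member transcripts than limma was not tested.

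**Figure D4:**
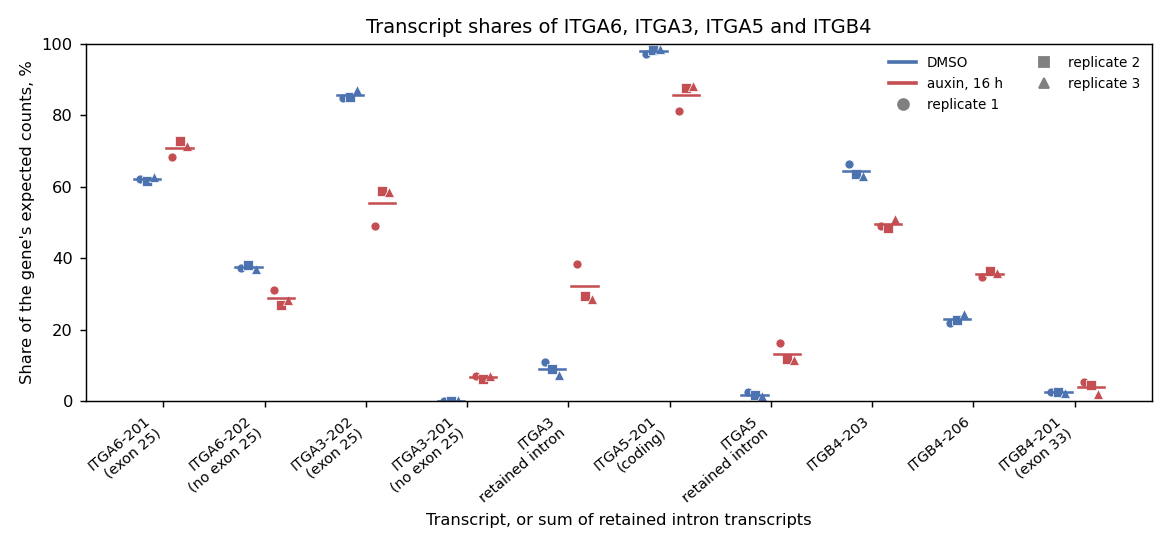
Share of the gene's expected counts, in percent, held by single transcripts or by the summed retained-intron transcripts of a gene in each of the 3 DMSO and 3 auxin libraries, with a line at each group's mean. The A form of ITGA6 (ITGA6-201) lies higher and that of ITGA3 (ITGA3-202) lower in every auxin library, and retained-intron shares of ITGA3 and ITGA5 lie higher.

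In ITGA6 the mix moved toward the A form. ITGA6-201, which ends in the exon 25 sequence printed above, held 62.3%, 61.5% and 62.6% of the gene's counts in DMSO and 68.5%, 72.7% and 71.5% in auxin libraries. ITGA6-202, the B form, held 37.3%, 38.1% and 37.1% in DMSO and 31.1%, 27.0% and 28.2% in auxin libraries. No auxin library overlapped a DMSO library for either form. The log2 odds rose by 0.57 (SE 0.11, adjusted p = 0.0225, limma) for the A form and fell by 0.58 (SE 0.11, adjusted p = 0.0226, limma) for the B form. Summed over the transcripts with the exon, the A share was 62.2% ± 0.6 and 70.9% ± 2.2 (SD, n = 3 each), a difference of 8.71 percentage points (two-sided exact permutation p = 0.1).

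In CPM, the A form of ITGA6 averaged 334.7 ± 40 in DMSO and 550.3 ± 82 in auxin libraries without overlap, and the B form 202.0 ± 24 and 221.3 ± 12 with overlap (SD, n = 3 each). Each auxin library was above the DMSO library of its number for both forms, by 164.9, 270.5 and 211.3 CPM for the A form and by 32.5, 15.4 and 10.0 CPM for the B form. The usage calls of both forms were sensitive to single libraries: only 1 of 6 fits that each left out 1 library kept the call of the A form, the one without auxin replicate 1, and the adjusted p (limma) over the 6 ranged from 0.0208 to 0.1005. The diffSpliceDGE test called neither form (adjusted p = 0.729 for the B form), and the direction of each form was the same in all 11 alternatives.

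In ITGA3 the mix moved away from the A form. ITGA3-202, which ends in exon 25 of that gene, held 84.8%, 85.1% and 87.2% of the counts in DMSO and 49.0%, 58.8% and 58.5% in auxin libraries. Its share was lowest in auxin replicate 1, and no library of one group reached the other. The log2 odds fell by 2.27 (SE 0.19, adjusted p = 0.00152, limma), a call not shared by diffSpliceDGE (adjusted p = 0.176). ITGA3-201, the B form, held 0.0697%, 0.0753% and 0.208% in DMSO and 7.08%, 6.17% and 6.996% in auxin libraries. It was nearly undetected in DMSO libraries and present in all 3 auxin libraries, although the gene as a whole fell. Its log2 odds rose by 6.12 (SE 0.44, adjusted p = 0.000992, limma), and its level went from 0.32 ± 0.19 to 6.79 ± 2.4 CPM (SD, n = 3 each). Of the counts of both forms, the A form took 99.9% ± 0.09 in DMSO and 89.1% ± 1.6 in auxin libraries (SD, n = 3 each), with an exact two-sided permutation p of 0.1. The authors' posterior standard deviation of the B form's count was at most 0.624% of the gene's counts in any library. Counts were assigned to whole transcript models, and ITGA3-201 (chr17:50056440-50089729) and ITGA3-202 (chr17:50056110-50090480) also differ in where they start and end. Reads across the exon 25 junctions were not counted, so the use of exon 25 by itself was not tested.

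The A share of the coding ends thus moved in opposite directions in these genes, higher in ITGA6 and lower in ITGA3, in each of the 3 auxin libraries. Of the counts of both forms, the A form of ITGA3 already took 99.9% in DMSO libraries, so that share had almost no room to rise. In both genes the A and B models also differ in their start and end positions. The difference between the genes was not tested.

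Much of the remaining ITGA3 signal after auxin lay in retained-intron transcripts. Their summed share was 10.9%, 8.88% and 7.27% in DMSO and 38.3%, 29.4% and 28.7% in auxin libraries (two-sided exact permutation p = 0.1). Replicate 1 was the highest in both groups, and the groups did not overlap. ITGA3-208, which covers 1415 of the 6335 bases of intron 23 (numbered along ITGA3-202), went from 2.20% ± 0.29 to 15.1% ± 2.1 (SD, n = 3 each, log2 odds change 2.99, SE 0.18, adjusted p = 0.000658, limma). ITGA3-204, which keeps introns 14 and 15, went from 2.25% to 6.89% (adjusted p = 0.00349, limma). ITGA3-216 (0.834% to 3.07%), ITGA3-206 (0.646% to 2.71%) and ITGA3-207, a model annotated for nonsense-mediated decay (0.442% to 2.16%), also rose in share. ITGA3-206 kept its call in 1 of 6 fits that left out 1 library. On the CPM scale the summed retained-intron level of ITGA3 was 25.4 ± 8.0 in DMSO and 33.1 ± 16 in auxin libraries, with overlapping ranges but a higher value in auxin for each replicate number, while ITGA3-202 fell from 238.7 ± 26 to 54.1 ± 10 (SD, n = 3 each).

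ITGA5 showed the same arrangement at a lower level. Its coding transcript ITGA5-201 held 97.2%, 98.4% and 98.6% of the counts in DMSO and 81.3%, 87.8% and 88.1% in auxin libraries. All auxin libraries were lower, replicate 1 the most. The log2 odds fell by 3.13 (SE 0.34, adjusted p = 0.00341, limma), while diffSpliceDGE did not call it (adjusted p = 1.00). ITGA5-211, which keeps introns 13, 17, 25 and 26 (numbered along ITGA5-201), rose from 1.36% ± 0.50 to 9.73% ± 1.6 (SD, n = 3 each, log2 odds change 3.01, SE 0.31, adjusted p = 0.00275, limma). ITGA5-209, which keeps intron 25 (chr12:54399948-54400845, minus strand), rose from 0.211% to 2.31% (adjusted p = 0.00261, limma). Summed, the retained-intron transcripts went from 1.74% ± 0.56 to 13.1% ± 2.7 of the counts, and from 1.44 ± 0.47 to 3.01 ± 0.99 CPM without overlap (SD, n = 3 each). ITGA5-201 fell from 80.8 ± 1.3 to 19.4 ± 1.3 CPM.

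ITGB4 fell in all its larger transcripts, and its mix shifted between models of the same protein. ITGB4-203 held 66.5%, 63.5% and 62.9% of the counts in DMSO and 49.1%, 48.4% and 51.0% in auxin libraries, and ITGB4-206 held 21.8%, 22.6% and 24.4% in DMSO and 34.8%, 36.4% and 35.9% in auxin libraries. Neither overlapped between groups. The log2 odds fell by 0.88 (adjusted p = 0.00581, limma) for ITGB4-203 and rose by 0.90 (adjusted p = 0.00517, limma) for ITGB4-206, and diffSpliceDGE called neither (adjusted p = 0.937 and 0.271). Both encode 5256 coding bases and differ outside them, in the first exon and at the 3' end. In CPM, ITGB4-203 went from 157.4 ± 21 to 24.2 ± 2.5 and ITGB4-206 from 55.8 ± 3.3 to 17.4 ± 1.7 (SD, n = 3 each). ITGB4-209, a short 5-exon model, held 6.97% in DMSO and 5.60% in auxin libraries and was not called.

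ITGB4-201, the form with the added 210-base exon 33 in the part of beta4 inside the cell, held 2.55%, 2.60% and 2.10% in DMSO and 5.31%, 4.59% and 2.02% in auxin libraries. Auxin replicate 3 lay below all DMSO libraries, so the groups overlapped (difference 1.56 percentage points, two-sided exact permutation p = 0.4). The difference was 2.53 points without auxin replicate 3, where its share was called higher (adjusted p = 0.0362, limma), 0.89 points without auxin replicate 1 and 0.77 points as a share of TPM. Retained-intron transcripts stayed a small part of ITGB4, with 0.213% ± 0.058 in DMSO and 1.57% ± 0.53 in auxin libraries (SD, n = 3 each). They held under 1% of the counts of ITGA6, ITGAV, ITGB1 and ITGB5 in every library, and ITGA2 and ITGB6 have no transcript model of that type. In ITGAE they held 9.67% in DMSO and 8.77% in auxin libraries. ITGAE-202 fell from 3.46% to 1.15% (adjusted p = 0.0352, limma), a call lost in each of the 6 fits that left out 1 library (adjusted p = 0.0662 to 0.112). The split of ITGB6 between its transcripts could not be read at its low counts.

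Of the 16 integrin subunit genes outside the 10 members, 11 passed the filter, with 3 higher, 1 lower and 7 not called (edgeR) and a median log2 fold change of -0.44. When replicates were blocked by number, 3 were higher and 5 lower, beside 7005 and 6789 of all 19725 tested genes. Without auxin replicate 1, 1 was higher and 5 lower, beside 4979 and 5575 of the 19998 genes tested in that fit. ITGB8, whose chain pairs with alphaV, was the only one of them above 10 CPM and rose from 39.6 ± 6.4 to 71.5 ± 12 CPM (SD, n = 3 each, log2 fold change 0.85, adjusted p = 0.00287, edgeR quasi-likelihood test). ITGA1, the collagen receptor chain alpha1, fell from 4.68 ± 0.48 to 2.49 ± 0.25 CPM (SD, n = 3 each, log2 fold change -0.91, adjusted p = 0.000833, edgeR quasi-likelihood test). ITGB3, of the alphaV vitronectin receptor, rose from 0.0784 to 0.195 CPM (log2 fold change 1.38), and ITGA11 from 0.165 to 0.255 CPM (0.63). ITGA7 (2.19 CPM in DMSO and 1.61 CPM in auxin libraries), ITGAX (1.32 and 1.21), ITGA9 (1.05 and 0.815), ITGA10 (0.202 and 0.101), ITGAM (0.0932 and 0.0503), ITGA2B (0.0816 and 0.0407) and ITGB7 (0.0491 and 0.0247) were not called.

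Ligands of the integrins moved both ways: 9 of 24 tested matrix and cell surface ligand genes rose, 8 fell and 7 were not called, with a median log2 fold change of 0.01. With the GC correction, 11 rose and 5 fell, beside 5901 and 5010 of all 19725 tested genes. With the block on replicate number 12 rose and 11 fell, beside 7005 and 6789 of all tested genes. CTGF, a matricellular protein bound by integrins, rose most, by 1.75 (adjusted p = 6.36e-06), and LAMB3 rose by 1.29 (adjusted p = 4.08e-05, both edgeR quasi-likelihood test). LAMB3 encodes a chain of the epithelial basement membrane laminin bound by the alpha3 and alpha6 integrins, and LAMA3, another laminin chain gene, picked after its values were seen, rose by 0.89. TGFB1, whose latent form is bound by alphaV integrins, fell by 2.47 (adjusted p = 2.81e-06), and AGRN, a basement membrane proteoglycan, fell by 2.44 (adjusted p = 0.00325, both edgeR quasi-likelihood test).

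Among 40 tested genes of talin, kindlins and other adaptors that bind integrin tails or link them to actin, 14 rose, 13 fell and 13 were not called, with a median log2 fold change of 0.05. With the block on replicate number, 19 rose and 17 fell, beside 7005 and 6789 of all 19725 tested genes. FERMT1, the epithelial kindlin that activates beta chains, rose by 1.21 (144.6 ± 11 to 334.4 ± 25 CPM, SD, n = 3 each). TNS2, a tensin, fell by 4.31 (15.5 ± 3.7 to 0.763 ± 0.33 CPM), and SHARPIN, an inhibitor of integrin activation, fell by 2.84 (9.50 ± 1.3 to 1.33 ± 0.10 CPM, SD, n = 3 each). TLN1, the main talin, which couples beta tails to actin, was picked after its values were seen and fell by 1.77, from 206.1 ± 19 to 60.5 ± 4.9 CPM (SD, n = 3 each).

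Of 14 tested genes for hemidesmosome proteins and lateral partners of integrins, 7 rose, 5 fell and 2 were not called, with a median log2 fold change of 0.09. With the GC correction, 9 rose and 2 fell, beside 5901 and 5010 of all 19725 tested genes. CAV1, caveolin 1, rose by 0.93 and SLC3A2, the heavy chain that joins beta1 in the membrane, by 0.83. TSPAN4, a tetraspanin, fell by 3.53, and CD151, the tetraspanin that binds alpha3 and alpha6, fell by 1.90 (74.1 ± 3.3 to 19.8 ± 1.4 CPM, SD, n = 3 each). The other 3 lower genes were PLEC (-1.10), the plakin that ties beta4 to keratin, CD81 (-0.49) and BSG (-0.22), while the plakin gene DST and COL17A1, a hemidesmosome collagen, picked after their values were seen, rose by 0.38 and 0.44. Of 8 listed protease and chaperone genes, 4 fell and 0 were called higher by edgeR's quasi-likelihood test (1 at an unadjusted p under 0.05). The DESeq2 Wald test called 1 higher, and the fit with the replicate number as a block called 4. Whether each of the 8 acts on integrin chains was not tested. The lower genes were PCSK7 (-1.40), CNPY3 (-1.07), FURIN (-0.72), which cleaves alpha chain precursors, and CALR (-0.40), a folding chaperone, and 2 of the 4 lower calls were left with the GC correction. Together, 33 of 97 tested genes of these lists rose and 31 fell, shares that stand beside 25.4% and 26.9% of all genes. With the block, 7005 of all 19725 tested genes rose and 6789 fell.

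**Figure D5:**
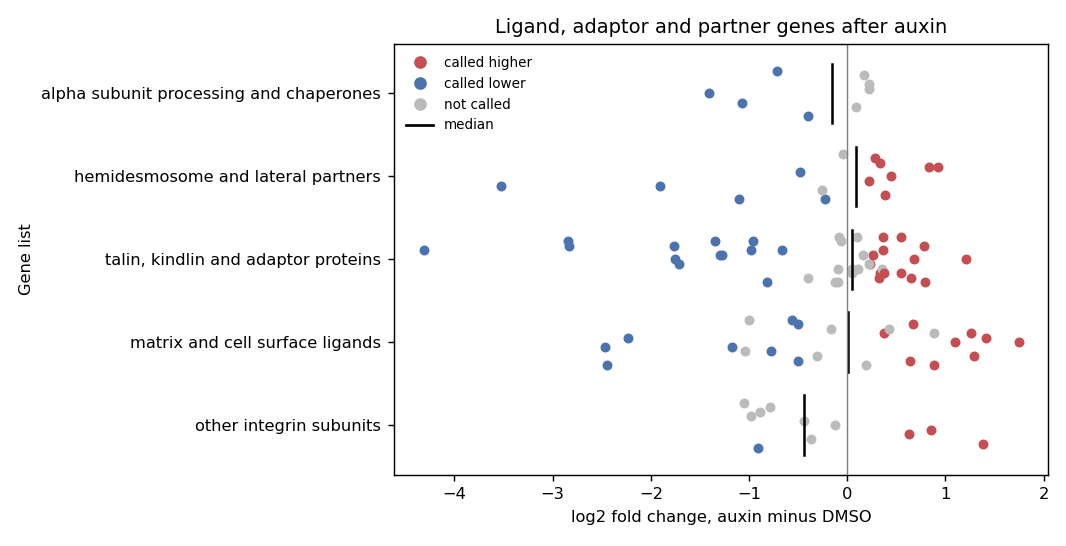
log2 fold change, auxin minus DMSO, of the 97 tested genes of the 5 lists, 1 point per gene, coloured by call, with a line at each list's median. Every list but that of alpha subunit processing and chaperones holds genes called in both directions, and TNS2 lies lowest, at -4.31.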

How the data were processed

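RNA was measured in 6 HCT116 libraries, grouped by the treatment in the labels. The authors deposited, per the file headers, an expected count (an estimated number of reads), a TPM value (scaled by length to a fixed total) and a posterior standard deviation (an other unit, the uncertainty of each count) for every gene and transcript. The submitters' processing notes name bcl2fastq 2.20, STAR, DESeq2 and the build GRCh38, also called hg38. The layout of the tables is of the RSEM kind, but the counter, its annotation and whether it used the strand are not given in the sources used here. All 58780 gene IDs and 206761 transcript IDs were found in GENCODE release 29. The tables hold 746 further IDs that are no GENCODE genes, with 0.000255% to 0.00111% of a library's counts, which were left out.

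Expected counts were rounded and tested with edgeR 4.0.16 in R 4.3.3 (filterByExpr, TMM factors, glmQLFit and glmQLFTest, with all 6 libraries and no covariate), and the SE was derived from the F statistic. Transcript usage was tested with limma 3.58.1 (trended variance) on the log2 odds of a transcript's share after adding 0.5 counts, for transcripts with a mean count of at least 10 and a mean share of at least 1%. Group shares went into exact two-sided permutation tests, whose smallest p is 0.1. Depth leaves the 95% Wilson interval of a retained-intron share within 0.912 percentage points for ITGA5 and 0.648 for ITGA3, an interval for the error of counting alone, because PCR copies carry no molecular identifier here and are not separate molecules. The 3 libraries of a group differed by more than sampling noise (chi-square per degree of freedom of 37.1 to 610.3), so each counted as a replicate.

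The labels number the replicates alike in both groups. Deviations of log2 CPM from the group means correlated at 0.65, 0.27 and 0.28 across genes for replicates 1, 2 and 3. Across numbers, DMSO replicate 3 with auxin replicate 2 gave 0.31, and DMSO replicate 2 with auxin replicate 3 gave 0.18. Pairs of replicate 1 with another number were all negative. These values set replicate 1 apart but cannot tell how replicates 2 and 3 pair. The numbers were still taken as pairing the libraries. Fits with the replicate number as a block are given for ITGB1, for each member or named transcript whose call they change and for lists by their counts. Named were all 10 members, up to 2 genes per direction and list with the largest change among called genes of at least 1 CPM on average, all other integrin subunits past the filter, and transcripts of ITGA6, ITGA3 and ITGB4 with a mean share of at least 5% or called transcripts of other members, and further names are marked as picked after their values were seen or are transcripts called for ITGA3 or needed for an A or B form. Some genes that the rule would name are not reported here. The members, lists and tests were chosen with earlier results of these data known. Alternatives were DESeq2 1.42.0 (size factors and Wald test), upper-quartile factors, limma on log2(TPM + 1) and log2(TPM + 0.1), other count filters, the block, replicates 2 and 3 only, each library left out, diffSpliceDGE, and offsets corrected for GC content, which were chosen after seeing the data.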

Additional observations from a re-analysis of the deposited data

How the results depend on the processing

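The zero point of the changes differed between settings: upper-quartile factors shifted the median of all genes by 0.12 on the log2 scale against TMM, and the limma fit on log2(TPM + 0.1), which differs from edgeR with TMM in unit, scaling, pseudocount and test at once, by -0.12. Of all called genes, 48.5% were higher with TMM, 59.7% with upper-quartile factors, 24.6% with log2(TPM + 1) and 24.0% with log2(TPM + 0.1). Called genes numbered 5010 higher and 5311 lower with edgeR and TMM, 970 and 2966 with log2(TPM + 1) and 1017 and 3223 with log2(TPM + 0.1). The direction of ITGAV turned with upper-quartile factors (0.0226), and no other member turned in 16 alternatives. ITGA5, ITGB4 and ITGB6 kept their calls in all 16. On log2(TPM + 1) and on log2(TPM + 0.1), 1 member was called higher in place of 5, and of the listed genes 9 and 10 were called higher in place of 33. Of the listed genes, 20 were called lower on log2(TPM + 1) in place of 31. Integrin transcripts called for usage numbered 8 with diffSpliceDGE and 8 at a mean share of at least 5%, in place of 15, and all 8 were among the 15 in both. The second tests fewer transcripts by construction, and for the others the cause was not tested. Leaving out 1 library at a time gave 4 to 5 members higher, 3 lower in every fit, and 11 to 12 transcripts.

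With the replicate block, the pairing of the libraries by number, 6 members were higher, 4 lower and 16 transcripts called, and ITGAV (-0.10) and ITGAE (0.20) passed. It changed no other member's call. Of all 19725 tested genes, 7005 were called higher and 6789 lower with the block. With GC-corrected offsets, chosen after seeing the data, 5 members were higher and 4 lower, ITGAV among the lower (-0.14). Those offsets gave 5901 higher and 5010 lower over all 19725 tested genes. As a share of all counts of the gene, retained-intron transcripts included, the A form of ITGA6 was higher by 8.71 percentage points. That of ITGA3 was lower (-30.3), and the shares of TPM gave 8.11 and -26.1. Of the counts of coding transcripts with or without exon 25 alone, the differences were 8.76 for ITGA6 and -10.8 for ITGA3. Depth limits ITGB6 alone among the members, whose counts did not exceed 228 in any library.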
